A study of Mus musculus with 11 samples.

Results

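Cadherin and protocadherin genes encode adhesion proteins of the cell surface, and their mRNA levels were compared in retina at postnatal day 21 between wild-type mice and mice lacking Nrl, the leucine zipper transcription factor that directs photoreceptor precursors to the rod fate. The genes were the rows of the deposited table named Cdh followed by a number, or with a name starting Pcdh, other than Cdh23 and Pcdh15, with 10 or more normalized counts in 5 or more of the 11 libraries. 86 genes passed, out of 92 rows with such names, 14584 genes tested and 23284 rows in all. The rule did not use the difference between genotypes, but 4 genes (Cdh3, Cdh19, Pcdha8 and Pcdhb1) passed it only with knock-out libraries counted. 5 wild-type libraries were compared with 6 Nrl knock-out libraries, all from whole retina at day 21, with the genotype as the only labelled difference. The labels give no strain, sex or construct for the knock-out, nor whether replicates are separate animals, and p-values therefore measure only how far these samples spread.

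Classical cadherins bind calcium and join like cells through their outer domains, while their tails bind p120 and beta-catenin and, through alpha-catenin, actin. Type I cadherins form the junctions of epithelia and of the outer limiting membrane of the retina, and several type II cadherins mark and connect particular retinal interneurons and ganglion cells. Nonclustered delta protocadherins have tails that act on the actin machinery. The clustered alpha, beta and gamma protocadherins are made from arrays of variable exons with a promoter each, which give single neurons a combination of isoforms used in self-avoidance and, for the gamma cluster, in the survival of retinal interneurons.

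The values are read counts per gene that the authors divided by a size factor per library, called normalized counts here. Reads in genes numbered 16126210 to 20685840 per wild-type library and 14907613 to 19877314 per knock-out library. Nrl fell from 37017 ± 1947 (SD, n = 5) to 51.7 ± 5.09 (SD, n = 6) normalized counts. The 6 rod marker genes fell and the 7 cone marker genes rose, with summed cone marker levels of 22095 to 25176 in wild-type and 195330 to 242196 in knock-out libraries. The library with the fewest reads of each genotype (wild-type 1, knock-out 2) was left out in an alternative, which called 21 of the 86 genes higher and 18 lower.

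Of the 86 genes, 18 rose and 17 fell in the knock-out at an adjusted p under 0.05 (limma on log2(normalized count + 1), Benjamini-Hochberg over all 14584 genes). The share that rose was 20.9%, against 23.6% of all tested genes, and the share that fell was 19.8%, against 22.7%. In either direction 40.7% changed, against a background of 46.3%, so the family as a whole changed no more often than other retinal genes. 11 of the 86 genes were called with a change of at least 0.5 on the log2 scale, against 2565 of the 14584 tested genes (17.6%). For a change of at least 1 these counts were 5 and 1133 (7.77%). Both were smaller shares of the family than of all tested genes. The libraries of the genotypes did not overlap for 22 genes, 25.6% of them, against 30.9% of all tested genes. The median log2 fold change was -0.02 over the family and -0.01 over all tested genes. When libraries were scaled to their read totals instead, the median over all tested genes moved to 0.13 and 29 of the 86 genes rose and 9 fell. In the authors' deposited table, 34 of the genes had an adjusted p under 0.05, of which 33 were among the 35 above and had the same direction.

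The 5 largest changes fell in different classes: Cdh3, Pcdhac2, Cdh20 and Pcdhb1 rose, and Pcdhga9 fell. Cdh3 and Pcdhb1 passed the rule only with knock-out libraries counted, in which they were high. Because these 5 were picked for size, all other genes of the family changed less, relatives by name or cluster position included. All fold changes given are differences of log2(normalized count + 1), so that those of genes with few reads are understated.

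**Figure D1:**
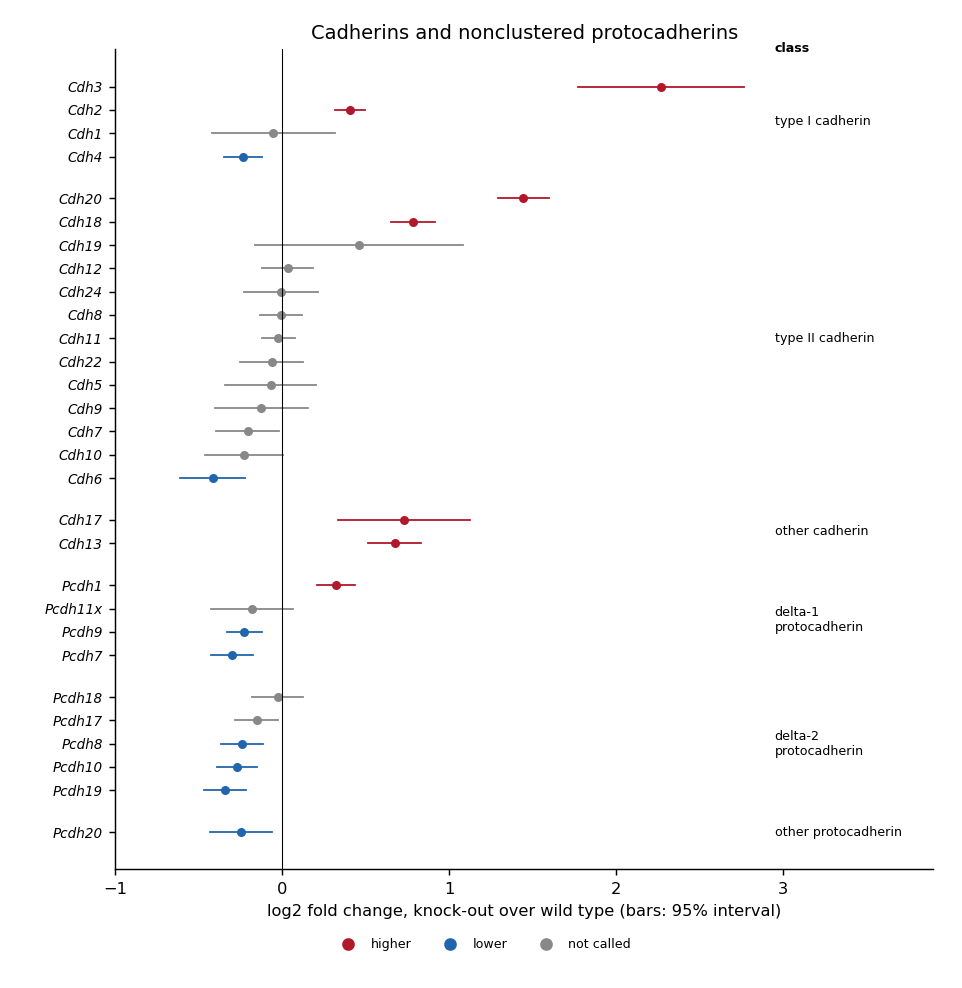
Log2 fold change (knock-out over wild type) of the 29 cadherins and nonclustered protocadherins, grouped by class, with points for limma's estimates, bars for 95% confidence intervals and colours for the call at an adjusted p under 0.05. Cdh3 at 2.27 and Cdh20 at 1.44 lie farthest to the right, while 6 of the 10 nonclustered protocadherins were called lower, between -0.34 and -0.23.

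Among the 4 type I cadherins, Cdh2 and Cdh3 rose, Cdh4 fell and Cdh1 did not pass the test. Cdh2, N-cadherin, which holds together the junctions of the outer limiting membrane, had the most reads of the class. Its wild-type libraries stood at 2096, 2136, 2138, 2099 and 2084 normalized counts, and its knock-out libraries ran from 2540.3 to 2949 with a median of 2822. Every knock-out library was thus above every wild-type library. The means were 2111 ± 24.7 (SD, n = 5) and 2797 ± 163 (SD, n = 6), a log2 fold change of 0.40 (SE 0.04, limma adjusted p = 2.75e-07).

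Cdh3, P-cadherin, is known from pigment epithelium and hair follicles, and its loss in humans causes hypotrichosis with macular dystrophy. It stood at 7.19, 12.9, 12.6, 15.3 and 8.01 normalized counts in the wild-type libraries and between 37.6 and 86.3, with a median of 55.3, in the knock-out libraries. The groups did not overlap, although the gene rested on only 55 wild-type and 358 knock-out reads in all. Its mean rose from 11.2 ± 3.45 (SD, n = 5) to 58.2 ± 18.6 (SD, n = 6), a log2 fold change of 2.27 (SE 0.24, limma adjusted p = 2.15e-07). Of the 11 tested markers of retinal pigment epithelium and melanocytes, 2 rose, the melanosome genes Pmel (log2 fold change 1.74) and Dct (0.99), and none fell. The summed markers of that list ranged from 840.2 to 1323 in wild-type and from 941 to 1832 in knock-out libraries, all had reads, and Rpe65, the isomerase that defines pigment epithelium, stood at 56.8 ± 12.2 (SD, n = 5) and 48.0 ± 14.1 (SD, n = 6). The part of those cells in the rise of Cdh3 was not tested.

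Cdh4, R-cadherin, named for the retina, fell. Its wild-type libraries stood at 1166, 1187, 1036, 1079 and 1019 normalized counts and its knock-out libraries between 864 and 999.5, so the groups were close but did not overlap. The log2 fold change of -0.24 (SE 0.05, limma adjusted p = 0.00138) became -0.10 (adjusted p = 0.11) when libraries were scaled to their totals. Cdh1, E-cadherin of epithelia, had 26.9 ± 4.92 (SD, n = 5) and 25.8 ± 4.11 (SD, n = 6) normalized counts and overlapped fully, with a difference of -0.05 whose 95% interval ran from -0.42 to 0.32.

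The 13 type II cadherins held a pair of risers, Cdh20 and Cdh18, and 1 gene that fell, Cdh6, while 10 did not pass the test. The share called was 23.1%, against 46.3% of all tested genes. Their promoters, 250 bases before to 50 bases after the annotated start, were read from RefSeq's table on GRCm38.p6 for 18 of the 86 genes (21 promoters), and 4 are printed here, 5′ to 3′ along the gene. Cdh20 and Cdh18 are shown because they rose most among type II cadherins, and Cdh7 and Cdh10 because they hold the letters searched for and, as neighbours by family, did not pass the test. The letters were TAATCC, the core bound by the photoreceptor homeobox factors Crx and Otx2, and TGCTGA, the half-site of the Maf family to which Nrl belongs, each searched on both strands. Capitals mark them (GGATTA is TAATCC read on the other strand).
Cdh20 (chr1:104768270-104768569, + strand): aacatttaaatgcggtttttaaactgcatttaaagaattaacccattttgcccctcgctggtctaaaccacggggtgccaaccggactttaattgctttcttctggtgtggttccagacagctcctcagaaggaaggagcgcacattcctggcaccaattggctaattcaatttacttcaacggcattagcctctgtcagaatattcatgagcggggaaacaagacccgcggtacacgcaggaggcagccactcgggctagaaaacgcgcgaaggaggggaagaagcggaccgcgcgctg
Cdh18 (chr15:23036213-23036512, + strand): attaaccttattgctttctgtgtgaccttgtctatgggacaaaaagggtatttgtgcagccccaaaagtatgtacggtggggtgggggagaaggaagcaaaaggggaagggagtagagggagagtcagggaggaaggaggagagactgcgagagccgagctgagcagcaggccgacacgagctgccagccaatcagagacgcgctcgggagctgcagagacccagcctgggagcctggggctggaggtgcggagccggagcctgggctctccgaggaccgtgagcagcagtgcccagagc
Cdh7 (chr1:109982650-109982949, + strand): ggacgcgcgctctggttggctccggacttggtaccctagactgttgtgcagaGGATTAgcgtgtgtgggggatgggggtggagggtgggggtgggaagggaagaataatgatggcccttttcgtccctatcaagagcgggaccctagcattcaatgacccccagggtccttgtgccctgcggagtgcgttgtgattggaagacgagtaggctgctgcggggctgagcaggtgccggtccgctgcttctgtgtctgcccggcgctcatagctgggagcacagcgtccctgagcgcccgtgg
Cdh10 (chr15:18820079-18820378, + strand): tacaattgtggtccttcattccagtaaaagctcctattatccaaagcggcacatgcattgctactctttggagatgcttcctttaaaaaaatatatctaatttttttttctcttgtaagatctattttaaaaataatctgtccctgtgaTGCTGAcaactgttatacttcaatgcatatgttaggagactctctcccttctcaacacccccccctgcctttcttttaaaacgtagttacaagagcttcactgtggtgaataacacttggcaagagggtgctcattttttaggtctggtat
TAATCC was in 1 of the 21 promoters (4.76%), the Cdh7 promoter printed here, and in 7.06% of all 32851 promoters of the table. The further promoters of Cdh7 held neither. TGCTGA was in 3 (14.3%), those of Cdh9, Cdh10 and Pcdh17, against 19.5% of all promoters. Neither was in the windows of Cdh20 and Cdh18. The shares over all promoters of the table left out no chromosome. A match describes letters only.

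Cdh20, Cdh7 and Cdh19 lie on chromosome 1 in that annotation, and all 3 are type II cadherins. Its wild-type libraries stood at 450.4, 470.4, 377, 424 and 437 normalized counts, and its knock-out libraries ran from 1032 to 1378 with a median of 1159. The lowest knock-out library was above 2 times the highest wild-type library. The means were 432 ± 35.2 (SD, n = 5) and 1179 ± 122 (SD, n = 6), a log2 fold change of 1.44 (SE 0.07, limma adjusted p = 3.85e-12). Neither Cdh7 nor Cdh19 passed the test. Cdh7 had a log2 fold change of -0.21 and an adjusted p of 0.0628 by limma. Cdh19, a cadherin of Schwann cell precursors, had 0.46 and an adjusted p of 0.223, which became 0.71 with an adjusted p of 0.0431 without wild-type replicate 5, where it stood at 22.0 against 6.79 to 10.1 in the other wild-type libraries.

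Cdh18, a brain type II cadherin, stood at 377, 321, 318, 315 and 323 normalized counts in wild-type libraries and from 526 to 602, with a median of 583, in knock-out libraries. No library of either genotype reached the other group. The mean rose from 331 ± 26.0 (SD, n = 5) to 570.5 ± 33.2 (SD, n = 6), a log2 fold change of 0.78 (SE 0.06, limma adjusted p = 5.68e-09). On the same chromosome 15 lie Cdh6, Cdh9, Cdh10 and Cdh12. Of these Cdh6 fell and the others did not pass the test, with log2 fold changes of -0.13 for Cdh9, -0.23 for Cdh10 and 0.03 for Cdh12.

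Cdh6 is found on ganglion cells and starburst amacrine cells that detect motion direction. It stood at 224, 219, 168, 177 and 206 normalized counts in wild-type libraries and from 139 to 168, with a median of 142, in knock-out libraries. The groups only just failed to overlap, at 167.93 for the lowest wild-type and 167.90 for the highest knock-out library. The log2 fold change was -0.42 (SE 0.09, limma adjusted p = 0.00117).

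The remaining type II cadherins had log2 fold changes within -0.23 and 0.46. Cdh11, known from bone-forming cells, had the most reads of the class. It stood at 986, 974, 1021, 1024 and 948 normalized counts in wild-type libraries and from 904 to 1038, with a median of 971, in knock-out libraries. The groups overlapped fully, and the difference of -0.02 (SE 0.05, limma adjusted p = 0.7) had a 95% interval from -0.12 to 0.07. Cdh8 and Cdh9, which direct the axon endings of different OFF and ON cone bipolar cells to their layers, differed by -0.01 and -0.13. For Cdh8 the 95% interval ran from -0.13 to 0.12. The summed bipolar cell markers ranged from 27078.5 to 34175 in wild-type and from 35753 to 43502 in knock-out libraries. Single markers went both ways. Of the 9, 6 rose, Cabp5 most (1.79 on the log2 scale), and 1, Prkca, fell (-0.65). Cdh22 (-0.06) and Cdh24 (-0.01) were likewise within the spread of the libraries.

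Cdh5, VE-cadherin, is the adhesion protein of vessel walls. Its libraries stood at 122, 126, 118, 115 and 75.1 normalized counts in wild type and between 94.0 and 121 in the knock-out, a log2 fold change of -0.07 with an adjusted p of 0.69 by limma. Over the alternatives the log2 fold change of Cdh5 ranged from -0.20 to 0.07, and it was never called. Of 10 endothelial markers 1, Pecam1, fell (-0.31) and none rose. Their median log2 fold change was -0.18. Kdr (0.07) and Flt1 (0.05), which had the most reads, leaned up, and all the others leaned down. The summed levels, most of them Kdr and Flt1, were 6545 to 7523 in wild-type and 6632 to 7775 in knock-out libraries. Thus neither Cdh5 nor the sums separated the genotypes, while most single markers leaned lower without passing the test.

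Cdh13 and Cdh17, which lack the classical cadherin tail, both rose. Cdh13, T-cadherin, is held to the membrane by a lipid anchor and binds adiponectin. It stood at 253, 227, 216, 205 and 240.3 normalized counts in wild-type libraries and from 315 to 401, with a median of 368, in knock-out libraries. The groups did not overlap, and the log2 fold change was 0.67 (SE 0.08, limma adjusted p = 6.58e-07). Cdh17, a cadherin of liver and intestine, had few reads. It stood at 19.2, 22.1, 15.5, 14.2 and 20.03 normalized counts in wild-type libraries and from 22.1 to 36.6, with a median of 31.8, in knock-out libraries. The highest wild-type and the lowest knock-out library met, and the log2 fold change was 0.73 (SE 0.19, limma adjusted p = 0.00358).

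**Figure D2:**
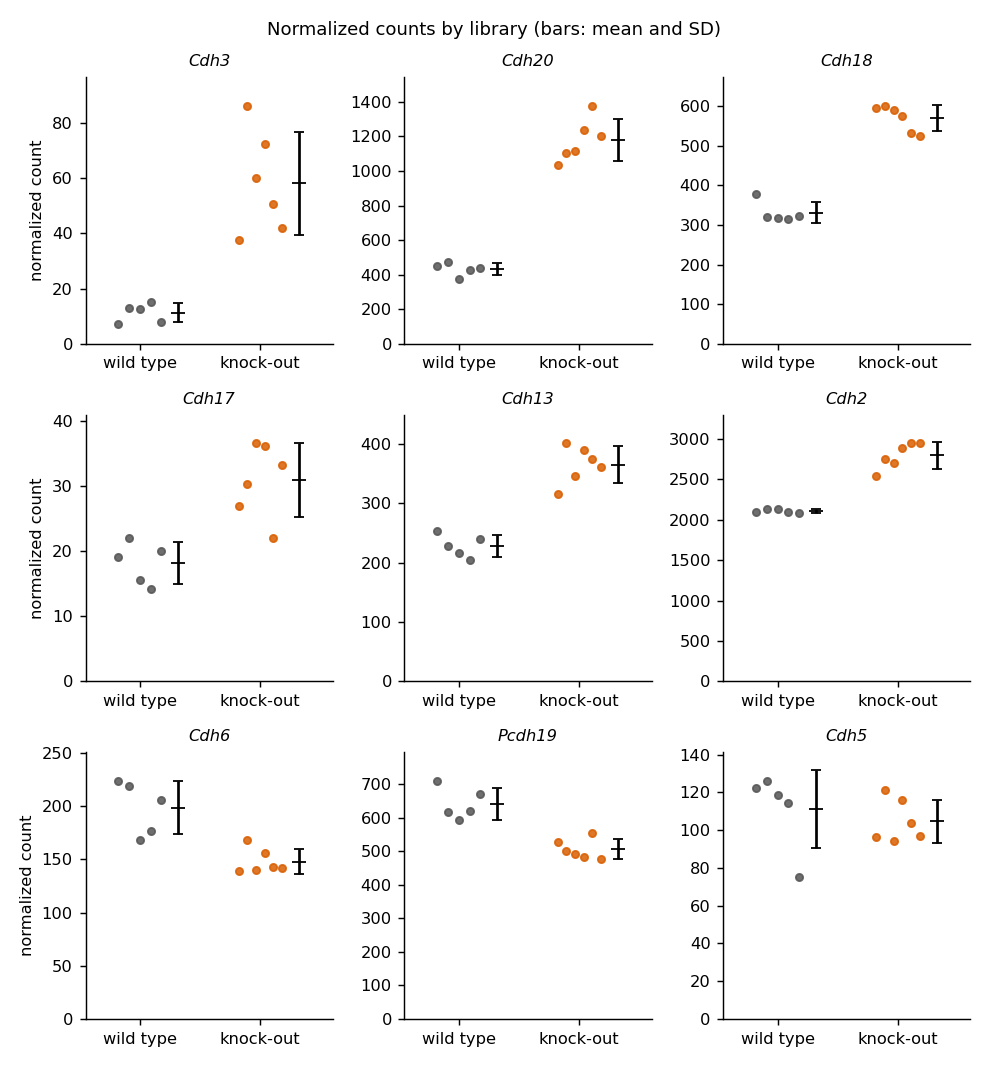
Normalized counts in each library (linear axes from 0, a scale for each gene) of Cdh3, Cdh20, Cdh18, Cdh17, Cdh13, Cdh2, Cdh6, Pcdh19 and Cdh5, wild type (n = 5) beside knock-out (n = 6), with a point for each library and bars for the mean and SD. The knock-out libraries of Cdh20 lie between 1032 and 1378 and its wild-type libraries between 377 and 470.4, while those of Cdh5 cover much the same range in both genotypes.

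Read counts grow with transcript length, so levels of different genes were compared per 1000 windows of 50 bases that occur in no other gene of the table (GENCODE transcripts on GRCm38). On that scale Cdh2 had the highest level of the 29 nonclustered genes in wild-type retina (430.2) and in the knock-out (570.2). Pcdh9 (304), Pcdh7 (253), Cdh11 (179.6) and Pcdh8 (173) followed in wild type. In the knock-out Cdh20 stood next after Cdh2, at 298 where it had been at 109 in wild type, and Cdh18 stood at 184 where it had been at 107. Cdh3 was the lowest of the 29 in wild type (2.58) and at 13.4 in the knock-out, above Cdh1, Cdh17 and Cdh19.

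Of the 10 nonclustered protocadherins 6 fell (60.0%, against 22.7% of all tested genes) and 1, Pcdh1, rose (where 23.6% of all tested genes rose). When libraries were scaled to their totals, 3 fell and 1 rose. Their median log2 fold change was -0.23 against -0.01 over all tested genes. The changes were small and alike in size. Pcdh10, OL-protocadherin, which recruits the WAVE actin complex, had the most reads. It stood at 2473, 2204, 2201, 2227 and 2099 normalized counts in wild-type libraries and from 1691 to 2027, with a median of 1869, in knock-out libraries. The groups did not overlap, and the log2 fold change was -0.27 (SE 0.06, limma adjusted p = 0.000585).

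Pcdh9 had narrowly the highest mean over all libraries in the delta-1 subgroup, though Pcdh7 was higher in wild type. The libraries of Pcdh9 stood at 2213, 2112, 2002, 2027 and 2054 normalized counts in wild type. In the knock-out they ran from 1599 to 1922, with a median of 1799. Again the groups did not overlap. The log2 fold change of Pcdh9 was -0.23 (SE 0.05, limma adjusted p = 0.000838), and -0.09 (adjusted p = 0.12) when libraries were scaled to their totals. Pcdh7, which binds protein phosphatase 1, fell from 2126 ± 206 (SD, n = 5) to 1723 ± 118 (SD, n = 6) normalized counts, without overlap and with a log2 fold change of -0.30 (limma adjusted p = 0.000459). Pcdh11x, at -0.18, did not pass the test.

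Pcdh19, whose mutation causes an epilepsy of girls, fell most among the delta-2 subgroup. Its wild-type libraries ranged from 592 to 710.4 and its knock-out libraries from 476 to 555 normalized counts, without overlap, and the log2 fold change was -0.34 (SE 0.06, limma adjusted p = 0.000123). Pcdh8, which removes N-cadherin from synapses in hippocampal neurons through the kinase Taok2, fell by 0.24 on the log2 scale, and by 0.11 (adjusted p = 0.17) when libraries were scaled to their totals. Pcdh17, which gathers at presynaptic and postsynaptic sites, lay beside the threshold with -0.15 and an adjusted p of 0.0509. Pcdh18, at -0.03, did not pass the test.

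Pcdh20, outside these subgroups, stood at 352, 283, 275, 248 and 275 normalized counts in wild-type libraries and from 208 to 261, with a median of 241, in knock-out libraries. The groups overlapped, and the log2 fold change was -0.25 (SE 0.09, limma adjusted p = 0.0265). The adjusted p was 0.0874 without wild-type replicate 1, its highest library, and 0.0627 without knock-out replicate 1, its lowest. Pcdh1 went the other way, from 691 ± 25.4 (SD, n = 5) to 864 ± 57.5 (SD, n = 6) normalized counts without overlap, a log2 fold change of 0.32 (SE 0.05, limma adjusted p = 6.58e-05).

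Markers of amacrine and of ganglion cells moved with the falling protocadherins. All 9 amacrine markers fell, by a median of 0.35 on the log2 scale, with summed levels of 22132 to 25343 in wild-type and 18130.4 to 20078 in knock-out libraries. All 9 ganglion cell markers fell too, by a median of 0.34, with sums of 26484 to 32905 and 19781 to 25987. Each of these markers had reads. In whole tissue fewer cells of a type and less RNA per cell cannot be told apart, and the part of these cells in the fall of the protocadherins was not tested.

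The remaining 57 genes were clustered protocadherins, 13 of the alpha, 22 of the beta and 22 of the gamma cluster, which lie in that order on chromosome 18. Of these 11 rose (19.3%, against 23.6% of all tested genes) and 9 fell (15.8%, against 22.7%). In either direction 35.1% changed, against 46.3%. In the beta cluster 7 genes rose (31.8%, against 23.6% of all tested genes) and none fell. In the gamma cluster 6 fell (27.3%, against 22.7%) and none rose, although 3 rose and 5 fell when libraries were scaled to their totals. The alpha cluster held 4 that rose (30.8%, against 23.6%) and 3 that fell (23.1%, against 22.7%). Alpha isoforms share their constant exons, and so do gamma isoforms, so reads may be shared. In the GENCODE transcripts on GRCm38 a median of 40.3% of the 50-base windows of an alpha gene, 54.9% of a gamma gene and 95.7% of a beta gene, which has no constant exon, occurred in no other gene of the table, against 100% for nonclustered genes. The alpha value covers 12 of the 13 genes, because no transcript of Pcdha10 was counted. How the authors' counting treated shared reads is not given in the sources used here. Single alpha and gamma values are uncertain for that reason.

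**Figure D3:**
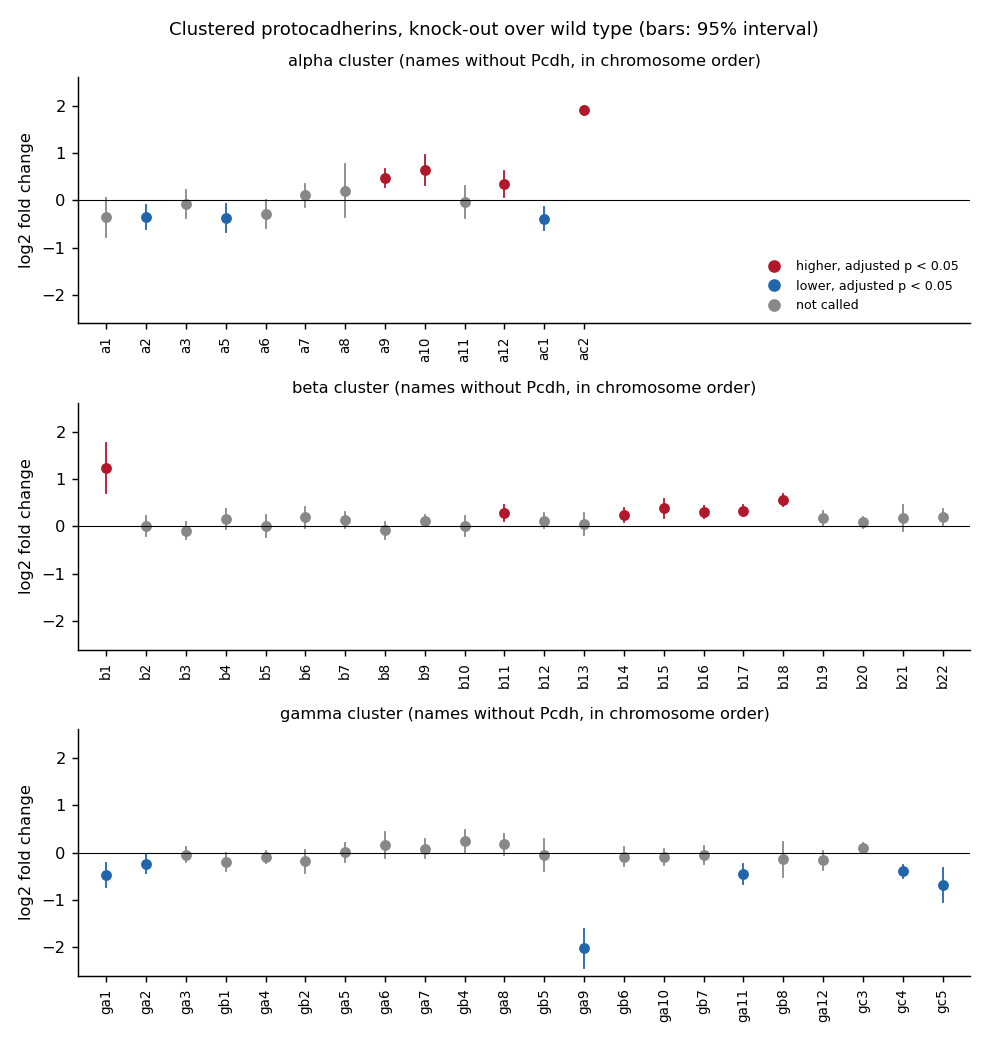
Log2 fold change (knock-out over wild type) of the 57 clustered protocadherins in their order along the chromosome, with a panel for each cluster, bars for 95% confidence intervals and colours for the call at an adjusted p under 0.05. Pcdhac2 at the end of the alpha cluster (1.90), Pcdhb1 at the start of the beta cluster (1.23) and Pcdhga9 within the gamma cluster (-2.02) stand away from their neighbours.

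Pcdhac2, the last variable exon of the alpha cluster, encodes a C-type isoform, which in the mouse is needed for the spacing of serotonergic axons. It had the most reads of its cluster and the smallest adjusted p of the family. Its wild-type libraries stood at 406, 419.8, 411, 406 and 425 normalized counts, and its knock-out libraries ran from 1479 to 1629 with a median of 1531. Both groups were tight and far apart. The means were 413 ± 8.43 (SD, n = 5) and 1546 ± 69.4 (SD, n = 6), a log2 fold change of 1.90 (SE 0.05, limma adjusted p = 6.98e-17). 51.8% of its windows occurred in no other gene, and the neighbouring C-type gene Pcdhac1 went the other way, from 95.5 ± 11.9 (SD, n = 5) to 72.8 ± 7.30 (SD, n = 6), a log2 fold change of -0.39 (limma adjusted p = 0.00907). With library-total scaling that of Pcdhac1 was -0.25 (adjusted p = 0.071).

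The summed alpha cluster was higher in every knock-out library. The sum went from 1309.6 ± 49.1 (SD, n = 5) to 2475 ± 92.6 (SD, n = 6) normalized counts, 1.89-fold, while the sum without Pcdhac2 was 896 ± 48.3 (SD, n = 5) and 929 ± 41.9 (SD, n = 6) and overlapped. Scaled to library totals, the sum without Pcdhac2 was 1.14-fold higher in the knock-out and did not overlap. Pcdhac2 made up 31.6% ± 1.23 (SD, n = 5) of alpha reads in wild type and 62.4% (SD 1.197, n = 6) in the knock-out. Among the 12 other alpha genes 3 rose and 3 fell (25.0% each, against 23.6% and 22.7% of all tested genes). Pcdha9 rose by 0.47 on the log2 scale without overlap, from 91.1 to 111 normalized counts in wild-type libraries to 122 to 147 in knock-out libraries. Pcdha10 (0.65) and Pcdha12 (0.35) rose with overlap, and Pcdha5 (-0.38) and Pcdha2 (-0.35) fell with overlap. Pcdha1 (-0.35), Pcdha6 (-0.29), Pcdha3 (-0.08), Pcdha11 (-0.03), Pcdha7 (0.10) and Pcdha8 (0.20) did not pass the test.

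The calls of Pcdha5 and Pcdha12 lay close to the threshold, each with an adjusted p of 0.0337. Without any of wild-type replicates 1 and 2 and knock-out replicates 1, 2 and 6 the log2 fold change of Pcdha5 was between -0.37 and -0.31 and its call was lost. Pcdha12, with estimates between 0.28 and 0.35, lost its call without any of wild-type replicates 3, 4 and 5 and knock-out replicates 1, 4, 5 and 6. Pcdha2 lost it without wild-type replicate 2 (-0.29) or 5 (-0.32).

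**Figure D4:**
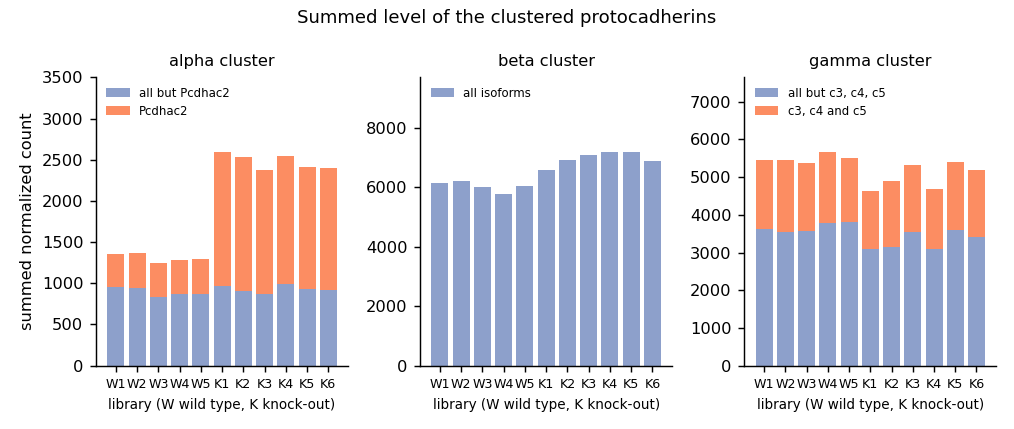
Summed normalized counts of the alpha, beta and gamma clusters as a bar for each library (W wild type, K knock-out, numbered by replicate), with Pcdhac2 and the 3 C-type gamma genes in a second colour. The alpha bars lie between 1249 and 1364 in wild type and between 2374 and 2594 in the knock-out, with nearly all of the difference in the Pcdhac2 part.

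Beta protocadherins are each encoded by a single exon without a shared constant part. Their sum went from 6034 ± 162 (SD, n = 5) to 6970.5 ± 230.1 (SD, n = 6) normalized counts, 1.16-fold and without overlap. The 7 genes that rose were Pcdhb1 and, in the later part of the cluster, Pcdhb11 and Pcdhb14 to Pcdhb18. Pcdhb17 had the most reads of the cluster. It stood at 611, 712, 671, 606 and 671 normalized counts in wild-type libraries and from 789 to 858, with a median of 822, in knock-out libraries, a log2 fold change of 0.33 (SE 0.05, limma adjusted p = 3.76e-05). The groups did not overlap, as was the case for Pcdhb18 (0.56), Pcdhb16 (0.30) and Pcdhb11 (0.27), while Pcdhb15 (0.38) and Pcdhb14 (0.24) rose with overlap.

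Pcdhb1, the most upstream of the cluster, also had the fewest reads. It stood at 11.98, 8.28, 14.6, 5.45 and 9.01 normalized counts in wild-type libraries and from 15.7 to 31.3, with a median of 23.9, in knock-out libraries. No knock-out library was as low as the highest wild-type library, but only 48 wild-type and 150 knock-out reads stood behind it. The log2 fold change was 1.23 (SE 0.25, limma adjusted p = 0.000524). With the minimum raised to 50 in 5 libraries, which leaves Pcdhb1 out, 6 of 21 beta genes rose. The 15 beta genes that did not pass the test had log2 fold changes from -0.09 (Pcdhb3) to 0.20 (Pcdhb22). Pcdhb22, with an adjusted p of 0.0513 by limma, passed with edgeR (0.0450) and DESeq2 (0.0421) and in the authors' deposited table (0.0492). The 15 genes were Pcdhb2, Pcdhb3, Pcdhb4, Pcdhb5, Pcdhb6, Pcdhb7, Pcdhb8, Pcdhb9, Pcdhb10, Pcdhb12, Pcdhb13, Pcdhb19, Pcdhb20, Pcdhb21 and Pcdhb22. When libraries were scaled to their totals, 15 beta genes rose and none fell.

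The gamma cluster as a whole did not separate the genotypes. Its sum was 5498 ± 109 (SD, n = 5) in wild type and 5015 ± 328 (SD, n = 6) in the knock-out, 0.912-fold with overlap, and the sums likewise overlapped, with a ratio of 1.00, when scaled to library totals. The median log2 fold change of its 22 genes was -0.09, and 0.04 when libraries were scaled to their totals, where 3 rose and 5 fell. Single genes differed more than the sum.

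Pcdhga9 showed the largest fall of the family. It stood at 99.4, 109, 89.3, 123 and 130.2 normalized counts in wild-type libraries and from 14.8 to 41.4, with a median of 26.7, in knock-out libraries. The highest knock-out library was below the lowest wild-type library by a wide margin. The means were 110.2 ± 16.8 (SD, n = 5) and 27.3 ± 8.59 (SD, n = 6), a log2 fold change of -2.02 (SE 0.20, limma adjusted p = 7.27e-08). Its nearest genes Pcdhgb5 (-0.05), Pcdhga8 (0.17), Pcdhgb6 (-0.09) and Pcdhga10 (-0.10) did not pass the test. 53.7% of its windows occurred in no other gene, and it made up 2.00% ± 0.28 (SD, n = 5) of gamma reads in wild type and 0.539% ± 0.144 (SD, n = 6) in the knock-out.

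The 3 C-type gamma isoforms differed among themselves. Pcdhgc3, which acts on Wnt signalling and dendrites, had the most reads of the cluster, at 1054, 1056, 1009.5, 1060.4 and 961 normalized counts in wild-type libraries and from 1002 to 1140.2, with a median of 1135, in knock-out libraries. The groups overlapped and the difference of 0.10 (SE 0.05, limma adjusted p = 0.0954) did not pass, though it did without knock-out replicate 1 (0.13, adjusted p = 0.0301). Pcdhgc4, the isoform needed for the survival of neurons, stood at 695, 724, 686, 691 and 622 normalized counts in wild-type libraries and from 447 to 561, with a median of 542, in knock-out libraries. These did not overlap, and the log2 fold change was -0.39 (SE 0.07, limma adjusted p = 6.49e-05). Pcdhgc5 fell by 0.68 on the log2 scale, with wild-type libraries from 92.2 to 145 and knock-out libraries from 55.9 to 105 (limma adjusted p = 0.00295). Pcdhgc4 made up 12.4% ± 0.76 (SD, n = 5) of gamma reads in wild type and 10.4% ± 0.54 (SD, n = 6) in the knock-out. The share of Pcdhgc3 was 18.7% ± 0.77 (SD, n = 5) and 22.0% ± 0.88 (SD, n = 6), and neither pair of shares overlapped.

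Of the other gamma genes Pcdhga1 (-0.47), Pcdhga11 (-0.45) and Pcdhga2 (-0.24) fell, all with overlap. The call of Pcdhga2, with an adjusted p of 0.0459, was lost with edgeR (0.0661) and DESeq2 (0.0535). The 15 remaining genes, Pcdhga3, Pcdhga4, Pcdhga5, Pcdhga6, Pcdhga7, Pcdhga8, Pcdhga10, Pcdhga12, Pcdhgb1, Pcdhgb2, Pcdhgb4, Pcdhgb5, Pcdhgb6, Pcdhgb7 and Pcdhgb8, had log2 fold changes from -0.21 to 0.24 and did not pass the test.

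**Figure D5:**
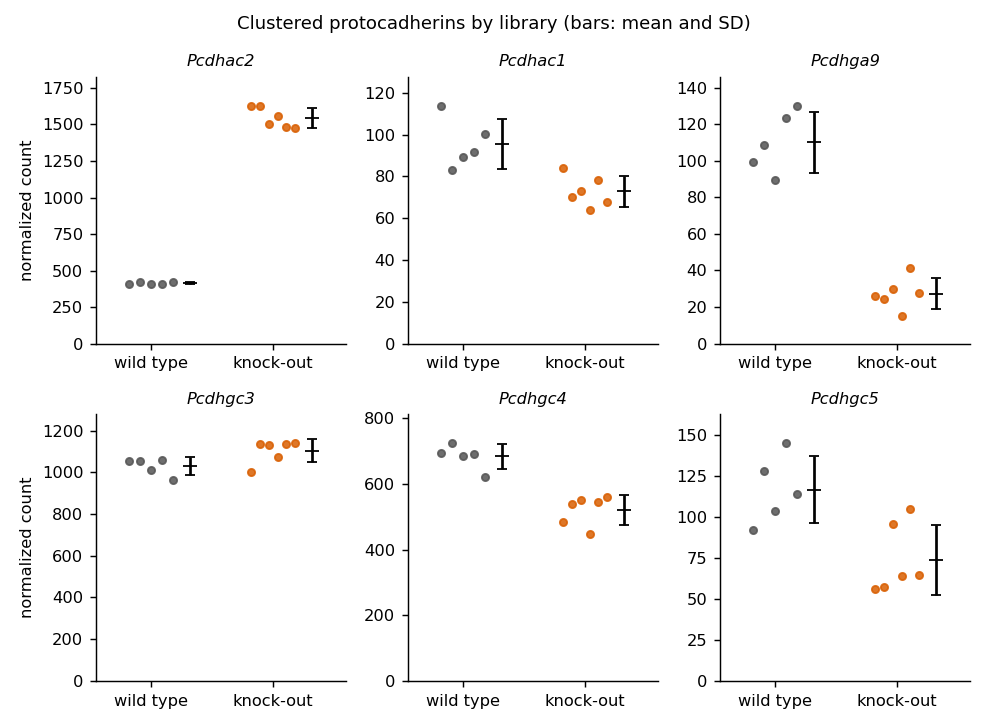
Normalized counts in each library (linear axes from 0, a scale for each gene) of Pcdhac2, Pcdhac1, Pcdhga9, Pcdhgc3, Pcdhgc4 and Pcdhgc5, wild type (n = 5) beside knock-out (n = 6), with a point for each library and bars for the mean and SD. The knock-out libraries of Pcdhac2 lie between 1479 and 1629 and those of Pcdhga9 at or below 41.4, where no wild-type library is under 89.3, and those of Pcdhgc3 overlap the wild-type libraries.

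The mRNAs of 18 catenins, plakophilins, nectins and their linkers were tested as partners of cadherins in adhesion. Of these 6 rose and 3 fell, 50.0% against 46.3% of all tested genes, with a median log2 fold change of -0.02. Ctnna1, alpha-E-catenin, which links cadherins to actin, rose from 2788 ± 151 (SD, n = 5) to 4441 ± 265 (SD, n = 6) normalized counts, a log2 fold change of 0.67. Ctnnal1, alpha-catulin, rose by 1.41, Pkp2, a plakophilin of desmosomes, by 0.58, and Ctnnd1, p120 catenin, which keeps cadherins at the surface, by 0.53. Plekha7, which ties p120 to microtubules, fell by 0.58. Ctnnb1, beta-catenin and the gene with the most reads on the list, had 0.09 and did not pass the test.

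Among 22 cytoplasmic partners and regulators of the protocadherins, 4 rose and 7 fell, 50.0% against 46.3% of all tested genes, with a median of -0.03. Cyfip2, a subunit of the WAVE complex and the gene with the most reads on the list, rose by 0.31. Dnmt3b, the DNA methyltransferase that sets promoter choice in the clusters, fell by 0.54, from 63.1 ± 7.01 (SD, n = 5) to 43.6 ± 8.72 (SD, n = 6) normalized counts with overlap. In the rest of the cadherin superfamily 2 of 14 rose and 2 fell, 28.6% against 46.3%. Cdhr1, a cadherin of photoreceptor outer segments, had the most reads there, with means of 34483 ± 2569 (SD, n = 5) and 38330 ± 2507 (SD, n = 6), a log2 fold change of 0.15 with overlap (limma adjusted p = 0.0245). Of 12 proteases that cut cadherins none rose and 3 fell, 25.0% against 46.3%, and Adam10, with the most reads, differed by 0.01.

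Several other marker lists moved between the genotypes beside these genes. All 7 microglia markers rose, with summed levels of 628 to 882 in wild-type and 2122 to 3111 in knock-out libraries. Of 8 Müller glia markers 4 rose and 1 fell, with sums of 87022 to 92472 and 78819 to 89532, and Vim rose by 0.80 on the log2 scale while Glul fell by 0.27. Of 9 bipolar markers 6 rose and 1 fell. All of these markers had reads, and their part in the changes of the cadherins was not tested.

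The low end of the rule was described by the fifth-highest library value. Just inside were Cdh19 (13.1 normalized counts), Pcdha8 (16.4) and Pcdhb1 (20.4), and just outside Cdh16 (9.01), Cdh15 (8.34) and Pcdh12 (3.59). Also outside were Cdh26, Pcdha4 and a further row named Pcdha4-g, which was listed at 0. 82 genes reached 10 in all libraries, and the other 4, Cdh3, Cdh19, Pcdha8 and Pcdhb1, did so in libraries of both genotypes. Pcdhb1 did so in 2 wild-type and 6 knock-out libraries, Cdh19 in 2 and 5, and Pcdha8 in 4 and 5. Cdh3 was under 10 in wild-type libraries only. Each of the 4 passed only with knock-out libraries counted, so the rule is not independent of the rises of Cdh3 and Pcdhb1.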

How the data were processed

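mRNA of retina was measured in 5 wild-type and 6 Nrl knock-out libraries, grouped by their titles. Per the labels' protocols, libraries were barcoded TruSeq and reads single-end, stranded and 50 bases long. Both polyA RNA and removal of ribosomal RNA are named there. The authors deposited 1 table of 23284 genes, whose library columns hold a signal, read counts divided by 1 size factor per library, next to the authors' log2 fold change and adjusted p-value per the file headers. TopHat2 2.1.1, HTSeq 0.6.0, DESeq and build mm9 are named in the submitters' processing notes. Annotation and strand setting are not given in these sources.

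The values were whole multiples of 1 step per library, to within 1e-06 of a read, which gave back the reads and the depth. Genes at 10 or more in at least 5 libraries (14584) were tested, two-sided, with limma 3.58.1 in R 4.3.3 (trend, robust moderation) on log2(normalized count + 1). Genotype was the sole term, with Benjamini-Hochberg adjustment over all of them. The fit was tested on simulated data. Alternatives were edgeR 4.0.16 and DESeq2 1.42.0 on the recovered reads, other scalings, filters, pseudocounts (0.1 and 5) and thresholds, a replicate block, and leaving out libraries.

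The genes, lists and alternatives were chosen with earlier results of these data known. Each gene of the rule is named. Values by library and full statistics went to nonclustered genes called with a change of at least 0.5 and the 3 largest changes among called clustered genes. The gene with the most reads of each class was treated alike. Genes of the partner and relative lists were named if called with at least 0.5 or if they had the most reads. Cell type markers were given by counts and sums, and only some were named, without that rule. Values of further genes were added after they were seen.

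Shared sequence was counted as 50-base windows of GENCODE vM21 transcripts on GRCm38, and promoters came from RefSeq on GRCm38.p6. That build is not the authors', so no coordinates were joined to the deposited table. All 86 genes were found by symbol in the RefSeq table.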

Additional observations from a re-analysis of the deposited data

Results flagged for a closer look

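In 11 of the 172 groups of libraries examined (86 genes in 2 genotypes, 6.40%), the highest or lowest library stood apart from the rest of its group by Dixon's test at the 95% level. Chance alone gives about 1 in 20 groups.

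Among cadherins, Cdh5 stood at 75.1 normalized counts in wild-type replicate 5 against 115 to 126 in the other wild-type libraries. Cdh19 stood at 22.0 in the same library against 6.79 to 10.1. Cdh18 was high in wild-type replicate 1 (377 against 315 to 323), where Cdh24 was low (223 against 273 to 284). Cdh12 was low in wild-type replicate 4 (257 against 303 to 316).

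Among beta protocadherins, Pcdhb2 was low (96.0 against 129 to 139) and Pcdhb20 high (529 against 465 to 480.5) in wild-type replicate 4. Pcdhb14 was high in wild-type replicate 2 (372 against 294 to 315). In the knock-out, Pcdhb4 was high in replicate 4 (258 against 202 to 219), Pcdhb22 was high in replicate 5 (516 against 368 to 421), and Pcdhb18 was low in replicate 6 (571 against 604 to 619). No alpha or gamma gene was among the 11.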

How the results depend on the processing

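Over 23 alternatives with values for the genes, 1880 of 1971 values kept their side of the threshold, 42 lost a call and 49 gained one. 24 genes changed sign under at least 1 alternative, none of them among the 35 called genes. 26 of the 35 called genes, 17 higher and 9 lower, were called under each alternative in which they were tested, and Cdh3, Cdh17 and Pcdhb1 were not tested at the minimum of 50. Library-total scaling gave 29 genes higher and 9 lower, 5864 and 1708 over all tested genes (77.4% of calls higher, against 51.1%), 26 and 9 on the partner and relative lists, and knock-out over wild-type sums of 2.08 (alpha), 1.27 (beta) and 1.00 (gamma). Under it Cdh4, Pcdh8, Pcdh9, Pcdh20, Pcdhac1, Pcdha2, Pcdha5 and Pcdhga2 lost their calls, and 11 genes gained one: Pcdhgc3 (0.24), Pcdhga8 (0.31), Pcdhgb4 (0.38), Pcdhb4, Pcdhb6, Pcdhb7, Pcdhb9, Pcdhb12, Pcdhb19, Pcdhb20 and Pcdhb22 (0.23 to 0.34 for the beta genes). The cause of these shifts was not tested. Requiring a change of at least 0.5 left 9 higher and 2 lower of the family, 1588 and 977 of all tested genes, and 4 and 2 of the lists. Requiring at least 1 left 4 and 1, 754 and 379, and 1 and 0. Leaving out a library in turn gave 17 to 20 genes higher and 14 to 20 lower, and 3224 to 3469 and 2928 to 3239 over all tested genes. The same-numbered libraries did not deviate together (correlations of -0.13 to 0.22), so the numbers were not taken as pairs. Libraries of different numbers reached further, from -0.36 (wild-type 1 with knock-out 5) to 0.41 (wild-type 1 with knock-out 2), which was not examined further. With a replicate block 18 genes were higher and 14 lower. Knock-out 6 has no wild-type library of its number, so in that block it did not bear on the fold changes. Leaving out a single library also brought calls, with these log2 fold changes: Cdh7 without wild-type 4 or knock-out 2 (-0.24), Cdh10 without knock-out 2 (-0.28), Pcdh11x without wild-type 4 (-0.28), Pcdh17 without wild-type 3 or knock-out 2, 3 or 5 (-0.19 to -0.17), Pcdha1 without knock-out 2 (-0.48) and Pcdha6 without knock-out 4 (-0.37). So it was for Pcdhb6 without wild-type 1 (0.27), Pcdhb9 without wild-type 2 (0.15), Pcdhb19 without wild-type 3 or knock-out 1, 2 or 4 (0.20 to 0.21) and Pcdhb22 without wild-type 1 or knock-out 2 or 6 (0.23 to 0.24). Pcdhgb1 was called without wild-type 1 or knock-out 3 (-0.25) and Pcdhgb4 without wild-type 3 (0.33), while Pcdhga2 lost its call without wild-type 3, 4 or 5 or knock-out 1, 4 or 6 (-0.23 to -0.19). Low reads limit Cdh3, Cdh17, Cdh19, Pcdha8 and Pcdhb1.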
